A study of Mus musculus with 4 samples.

Results

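The 7 genes described here encode proteins that coat or shape the lipid droplet: the perilipins Plin1, Plin2, Plin3, Plin4 and Plin5, the droplet fusion protein Cidec, and the seipin gene Bscl2. They were taken by symbol from the 32285 genes of the deposited matrices, and all 7 were found, each under 1 Ensembl gene (Plin1 is ENSMUSG00000030546). In the labelled nuclei of each RNA library, all 7 had at least 1 UMI (unique molecular identifier, a counted RNA molecule).

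A fat cell stores triglyceride in a droplet bounded by a single phospholipid layer, and the proteins on that layer decide how fast lipase enzymes reach the fat. Plin1, the main perilipin of fat cells, holds back lipolysis by binding the lipase activator Abhd5, and Cidec, found at contacts between droplets, moves lipid from small droplets to large ones and is known for the single large droplet of white fat. Seipin is no coat protein: it sits in the endoplasmic reticulum where droplets bud, and its loss causes lipodystrophy.

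The study measured nuclei of floating, adipocyte-enriched cells from the mouse thymus, an organ that gathers fat with age, and from epigonadal white fat, a visceral depot. All mice were wild-type and naïve, and the thymus donors were C57/BL6 on standard chow. RNA was counted in 1 library from 6 thymi pooled from males of 4 months and 1 library of epigonadal fat that carries the same 4-month male library name, and whose strain, diet and number of animals the labels leave out. Open chromatin was counted in 1 library from 16 thymi pooled from females of 6 months. With 1 library per group no comparison below has a test: each value is given with a 95% interval that covers counting error only, and depot, library and animals cannot be told apart. The labels also list an RNA library of these same 16 pooled thymi, which was not analysed here. The chromatin library differs from the RNA libraries used here in both sex and age, so its values are set beside theirs and not compared.

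The authors' cell labels divide adipocyte nuclei into a first type, Ad Ia with Ad Ib, which are joined here as Ad I, and a second type with the labels Ad IIa, IIb and IIc. The thymic matrix held 22600 barcodes and 10054839 UMIs, of which 365 barcodes (1.61%) carried a label. The epigonadal matrix held 5043 barcodes and 6504841 UMIs, with 1564 labelled (31.0%). Ad I comprised 84 thymic and 258 epigonadal nuclei, Ad IIa 231 and 590, Ad IIb 16 and 58, and Ad IIc 34 and 658. Median UMIs per labelled nucleus ran from 442 to 1801.5 in the thymic library and from 678.5 to 2313 in the epigonadal library. The matrices shared 147 barcode sequences, and none of these was labelled in both.

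The labels were checked against 10 adipocyte markers, among them Adipoq and Lep, and against 10 endothelial markers such as Pecam1, with levels in CPM, the UMIs of a gene per 1000000 nuclear-encoded UMIs of the group. The adipocyte markers summed to 10015 in thymic Ad Ia (Lep at 0) and 2726 in thymic Ad Ib (Retn, Lep and Cebpa at 0). The endothelial markers summed to 72.3 in thymic Ad Ia, with 8 of the 10 at 0, but to 3580 in thymic Ad Ib, with none at 0 and above its adipocyte sum. The adipocyte markers summed to 655 in thymic Ad IIa, 296 in Ad IIb and 1308 in Ad IIc, where the endothelial markers summed to 13852, 13583 and 12034 with none at 0. Thymic Ad II nuclei therefore carried few adipocyte transcripts and many endothelial ones, which goes against the sample label of adipocyte, and they are called here only by their label. In the epigonadal library the adipocyte sums lay between 10136 and 10585 in Ad Ia, Ad Ib and Ad IIa, at 4363 in Ad IIb and at 49129 in Ad IIc. The endothelial sums there were 10056 in Ad IIa and 11787 in Ad IIb, against 541 in Ad IIc. Thymic Ad IIc also held hemoglobin transcripts, with 4 erythroid markers at 25892 against 185 to 570 in the other thymic labels. The part of these admixed transcripts in the results below was not tested, and wherever a level is low, fewer droplet-bearing cells and less RNA per cell cannot be told apart.

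The stretches upstream of the first RefSeq start site are shown for 4 members, since open chromatin of the thymic nuclei labelled thyAD, given later, had a local peak beside these starts. Cidec and Plin1 are the pair whose ratios between the libraries diverged, Plin4 had the densest chromatin signal per kb, and Plin2 followed another RNA pattern than Plin1. Sequences are from RefSeq (GRCm38.p6, minus strand, 5′ to 3′), and capitals mark AGGTCA, the half-site bound by PPARγ and other nuclear receptors, or its reverse complement. For Plin1, Plin2 and Plin4 the gene record reaches past the listed start by 128, 158 and 166 bases, and only the bases beyond it are printed. The Cidec stretch also lies in the predicted noncoding gene Gm52871.
Cidec, chr6:113435761-113436010: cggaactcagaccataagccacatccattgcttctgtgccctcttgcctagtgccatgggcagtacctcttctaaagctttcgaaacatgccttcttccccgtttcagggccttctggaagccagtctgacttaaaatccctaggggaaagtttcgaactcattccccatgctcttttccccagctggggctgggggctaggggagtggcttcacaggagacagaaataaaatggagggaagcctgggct
Plin1, chr7:79732905-79733026: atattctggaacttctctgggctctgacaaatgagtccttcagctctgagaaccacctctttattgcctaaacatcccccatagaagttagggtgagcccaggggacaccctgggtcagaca
Plin4, chr17:56109949-56110032: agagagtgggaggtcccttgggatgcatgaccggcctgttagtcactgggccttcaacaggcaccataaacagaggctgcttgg
Plin2, chr4:86670218-86670309: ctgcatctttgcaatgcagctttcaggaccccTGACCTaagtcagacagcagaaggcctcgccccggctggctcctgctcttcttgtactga

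Of the printed stretches only that of Plin2 held the half-site, at position -218 from the start on the reverse strand, and 14.0% of 32851 RefSeq promoters held it within 250 bases. In that 250-base window on both strands, 6 motifs were searched: AGGTCA, the direct repeat AGGTCANAGGTCA that contains it (0.0335% of promoters), TATAA (22.8%), CACGTG (6.02%), GGGCGG (32.7%) and CCAAT (33.8%). Plin1 and both listed starts of Cidec held none of the 6. At the first starts, Plin4 held TATAA at -32, Plin5 held AGGTCA at -170, TATAA at -27 and GGGCGG at -100, and Plin3 held GGGCGG at -103, -19 and -14. CCAAT lay at -73 in Plin2, -75 in Plin3, -18 in Plin4, -224 and -62 in Plin5, and -187 and -69 in Bscl2. At later starts, Plin5 held GGGCGG at -239 and -53 of the second, and Bscl2 held AGGTCA at -202 of the second and TATAA at -115 and -114 of the third. These are matches of letters and show no binding.

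Plin1 was high in Ad I and at or near 0 in Ad II of the thymic library. In thymic nuclei it reached 1085 CPM in Ad Ia (732 to 1548, 30 UMIs) and 651 in Ad Ib (372 to 1057, 16 UMIs). In Ad IIa it stood at 9.96 (2.71 to 25.5, 4 UMIs), and no UMI was counted in Ad IIb or Ad IIc, which allows levels up to 111 and 55.3. The Ad Ia and Ad Ib intervals overlapped, and both lay above every other thymic label and above the 104 of unlabelled barcodes (95.4 to 114). In the epigonadal library Plin1 was 808 in Ad Ia (668 to 969), 391 in Ad Ib (287 to 520) and 444 in Ad IIc (388 to 505). It was 97.0 in Ad IIa (80.4 to 116), 42.6 in Ad IIb (15.6 to 92.8) and 164 in unlabelled barcodes (151 to 177). The epigonadal order was thus Ad Ia first, Ad IIc and Ad Ib overlapping next, unlabelled barcodes below them, and Ad IIa and Ad IIb lowest with overlapping intervals.

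Cidec, whose product enlarges droplets, was lower in the thymic library in each label with thymic UMIs. In thymic nuclei it was 1012 CPM in Ad Ia (673 to 1463, 28 UMIs), 163 in Ad Ib (44.3 to 417, 4 UMIs), 19.9 in Ad IIa (8.60 to 39.3), 111 in Ad IIc (40.6 to 241) and 141 in unlabelled barcodes (131 to 153), with no UMI in Ad IIb. In epigonadal nuclei it was 2988 in Ad Ia (2712 to 3284), 2054 in Ad Ib (1806 to 2327), 564 in Ad IIa (523 to 608), 405 in Ad IIb (307 to 525), 3133 in Ad IIc (2982 to 3289) and 1129 in unlabelled barcodes (1095 to 1163). Thymic Ad Ia stood above the other thymic labels and above unlabelled barcodes, whose Cidec level overlapped those of Ad Ib and Ad IIc.

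Plin4, a long perilipin of fat cells that binds the droplet through repeated amphipathic helices, was highest in epigonadal Ad IIc. There it reached 1104 CPM (1015 to 1199), against 508 in Ad Ia (398 to 639), 333 in Ad Ib (238 to 453), 181 in Ad IIa (158 to 206) and 63.9 in Ad IIb (29.2 to 121). Thymic Plin4 was 325 in Ad Ia (149 to 618, 9 UMIs) and 122 in Ad Ib (25.2 to 357, 3 UMIs), with 1 UMI each in Ad IIa and Ad IIb and 0 in Ad IIc. Its levels in thymic and epigonadal Ad Ia overlapped.

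Plin2, the perilipin present on droplets of most cell types, did not follow the Ad I pattern. Its thymic levels were 87.2 CPM in Ad IIa (60.7 to 121, 35 UMIs) and 203 in Ad IIc (101 to 363, 11 UMIs), with 1 UMI each in Ad Ia, Ad Ib and Ad IIb. Its epigonadal levels were 83.6 in Ad Ia (43.2 to 146), 108 in Ad Ib (57.6 to 185), 198 in Ad IIa (174 to 224), 78.2 in Ad IIb (39.0 to 140) and 291 in Ad IIc (246 to 341). Ad IIc thus held the highest point estimate of Plin2 in both libraries, although in the thymic one its interval overlapped that of Ad IIa.

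The remaining members were sparse in thymic labels. Plin3, an exchangeable perilipin that moves between cytosol and droplet, was 203 CPM in thymic Ad Ib (66.0 to 475, 5 UMIs) and 24.9 in thymic Ad IIa (11.9 to 45.8, 10 UMIs). In epigonadal nuclei Plin3 was 83.2 in Ad Ib (39.9 to 153) and 67.8 in Ad IIc (47.2 to 94.3), both above the 32.3 of Ad IIa by point estimate. Bscl2 peaked in epigonadal Ad IIc at 215 (177 to 259), above its 59.8 in epigonadal Ad IIa (47.0 to 75.1) and 101 in unlabelled barcodes (90.7 to 111). In thymic labels Bscl2 had 7 UMIs in all. Plin5, the perilipin of oxidative tissues such as heart and muscle, had 1 UMI in thymic labels and 13 in epigonadal labels, 9 of them in Ad IIc.

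**Figure D1:**
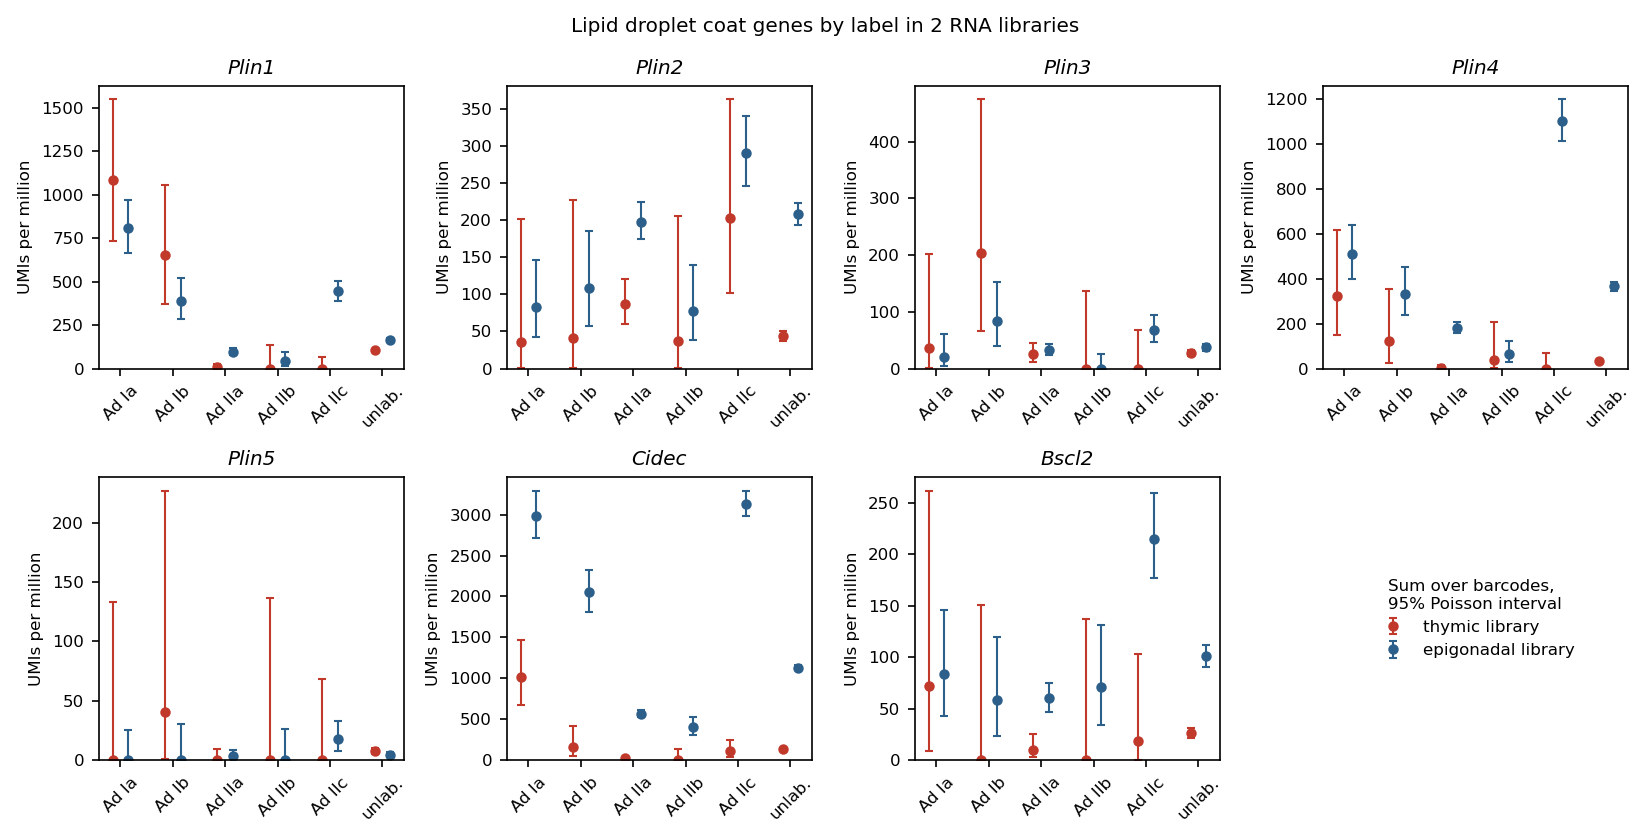
Level in CPM (vertical axes, linear, a separate scale per gene) for the 7 genes in each label and in unlabelled barcodes (unlab.), with the thymic library in red and the epigonadal library in blue; points are sums over barcodes and bars are 95% Poisson intervals. Plin1 is high in Ad Ia and Ad Ib of both libraries, and Cidec is at 1012 in thymic Ad Ia against 2988 in epigonadal Ad Ia.

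In droplet assays free RNA gives UMIs to nuclei that do not express a gene, so a background was read from another cell type. In 2798 thymic unlabelled barcodes chosen by at least 2 T cell markers, and by no UMI of the 10 adipocyte markers, a class that should lack Plin1 and Cidec, Plin1 stood at 21.9 CPM and Cidec at 26.3. Plin2 stood at 17.5 there, Plin3 at 16.8, Plin4 at 5.84 and Bscl2 at 19.7. This choice leaves out barcodes with free RNA of the markers and can understate the background, so the level over all thymic unlabelled barcodes, which can include adipocyte nuclei, is set beside it: 104 for Plin1, 141 for Cidec, 33.7 for Plin4, 25.9 for Bscl2, 27.4 for Plin3 and 43.7 for Plin2. Thymic Ad IIa values of Plin1 (9.96), Cidec (19.9), Plin4 (2.49) and Bscl2 (9.96) were below both levels, and Plin3 (24.9, 11.9 to 45.8) lay between them, so none of these is read as expression, whereas Plin2 in thymic Ad IIa (87.2, 60.7 to 121) was above both. Median depth was 1696 UMIs in thymic Ad IIa and 505 in the T-cell-marker barcodes. The same rule found 75 epigonadal barcodes, where Cidec stood at 53.1 CPM (14.5 to 136), Plin2 at 39.8 (8.21 to 116), Bscl2 at 26.6 (3.22 to 95.9) and Plin1 at 13.3 (0.336 to 74.0). Plin3 and Plin4 were at 0 there, which allows 39.8. Every epigonadal label lay above this T-cell-marker level for Cidec, whereas Plin2 in epigonadal Ad Ia, Ad Ib and Ad IIb, Bscl2 in every epigonadal label but Ad IIc, and Plin1 in Ad IIb overlapped it. The intervals of Plin3 in epigonadal Ad Ia (20.9, 4.31 to 61.1) and Ad IIa (32.3, 23.1 to 44.0) and of Plin4 in Ad IIb (63.9, 29.2 to 121) also reached below the 39.8 that a count of 0 allows.

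Counted by nuclei, Plin1 was seen in 57.1% of thymic Ad Ia nuclei (20 of 35) and Cidec in 45.7%, against 57.5% and 93.4% of epigonadal Ad Ia nuclei. Only 1.04% of the T-cell-marker barcodes had a Plin1 UMI and 1.29% a Cidec UMI, against 1.33% and 5.33% of the 75 epigonadal ones. Thinned to 500 UMIs per nucleus, which left out shallower nuclei, Plin1 was seen in 42.3% of 26 thymic Ad Ia nuclei (Clopper-Pearson 95% interval 23.4 to 63.1) and 31.1% of 106 epigonadal ones (22.5 to 40.9). Cidec was seen in 26.9% (11.6 to 47.8) and 75.5% (66.2 to 83.3). At equal depth in Ad Ia the Plin1 shares overlapped between the libraries and the Cidec shares did not. In Ad Ib Plin1 was seen in 24.5% of thymic and 24.3% of epigonadal nuclei. Thinned, it was seen there in 6.25% of thymic nuclei (1 of 16, 0.158 to 30.2) and 21.1% of epigonadal ones (32 of 152, 14.9 to 28.4), and Cidec in 6.25% and 58.6% (50.3 to 66.5). At least 1 of the 7 genes was seen in 80% of thymic Ad Ia nuclei and 46.9% of thymic Ad Ib nuclei, against 98.1% and 85.5% in the epigonadal library. These last shares were not thinned, and median depth was 604 and 442 UMIs in thymic Ad Ia and Ad Ib against 1077 and 678.5 in the epigonadal ones.

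Comparison of the same label between the libraries asks how droplet genes differ between the depots in nuclei the authors named alike; by the markers above, of the 5 separate labels only Ad Ia had an adipocyte sum above the endothelial one in both libraries. In Ad I of the thymic library the perilipin Plin1 had a higher point estimate and Plin4 a lower one, and Cidec was lower. Differences are given as log2 ratios of thymic over epigonadal CPM, with 0.5 UMI added to each sum. Plin1 was 881 against 618 CPM, a log2 ratio of 0.52 whose interval only just lay above 0 (0.0063 to 0.99). With TMM scaling, a trimmed mean over genes, it was 0.18, and the interval, moved by the same -0.34, spanned 0. Cidec was 613 against 2562, a log2 ratio of -2.04 (-2.62 to -1.55). Plin4 was 230 against 428, a log2 ratio of -0.85 (-1.89 to -0.038). The intervals of Plin2 (-1.01, from 2 thymic UMIs), Plin3 (1.28, from 6) and Bscl2 (-0.63, from 2) spanned 0, and Plin5 had 1 UMI in all. Of 6 members with at least 10 UMIs over both sides, 1 was higher by 2-fold or more, where 15.2% of the 5346 genes so counted were. In the other direction 2 were lower by 2-fold or more, where 17% of genes were. The median log2 ratio was -0.63 over all 7 members and -0.74 over the 6, beside 0.080 over all genes. Scaled by the adipocyte markers, which were lower in thymic Ad Ib, the median of Ad I was 0.039, Plin1 was at 1.19 and Cidec at -1.38. Plin4 was then at -0.18 with an interval that spans 0, and thinned to 500 UMIs per nucleus it was at -0.028, so its lower level in Ad I does not hold under either setting.

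Cidec was lower in the thymic library in each part of Ad I, while the Plin1 intervals spanned 0. In Ad Ia the log2 ratio of Cidec was -1.54 (-2.17 to -1.01), and 1 of 5 members was 2-fold lower, where 18.3% of genes were, and 0 were higher, where 16.4% were. In Ad Ib the log2 ratio of Cidec was -3.49 (-5.55 to -2.28), with 2 of 5 members 2-fold lower, where 16% of genes were, and 1 higher, where 21.4% were. Plin1 had log2 ratios of 0.44 in Ad Ia (-0.21 to 1.01) and 0.76 in Ad Ib (-0.18 to 1.58), and Plin4 also spanned 0 in each. Beside these values, the adipocyte markers summed to 10015 CPM in thymic and 10585 in epigonadal Ad Ia, and to 2726 and 10278 in Ad Ib. The endothelial markers summed to 72.3 and 870 in Ad Ia, and to 3580 and 2237 in Ad Ib, and their part in the Ad Ib values was not tested.

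The balance of Plin1 and Cidec within a group does not depend on the total by which UMIs are scaled. Plin1 made up 59.0% of the Plin1 and Cidec UMIs of thymic Ad I (46 of 78, Clopper-Pearson 95% interval 47.3 to 70.0) and 19.4% of those of epigonadal Ad I (163 of 839, 16.8 to 22.3). The share was 51.7% (38.2 to 65.0) against 21.3% (17.9 to 25.0) in Ad Ia, and 80% (56.3 to 94.3) against 16.0% (11.99 to 20.7) in Ad Ib. The pair was chosen because its ratios diverged, so these shares restate those ratios on the same UMIs and are no further support. In unlabelled barcodes the share was 42.5% in the thymic library and 12.7% in the epigonadal library, so the split was not confined to labelled nuclei. Against Plin4, Plin1 made up 79.3% (66.6 to 88.8) in thymic and 59.1% (53.0 to 64.9) in epigonadal Ad I.

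Cidea, a relative of Cidec best known from brown and beige fat, is no member but bears on the Cidec result. It had 16 UMIs in thymic Ad I (306 CPM) and 4 in epigonadal Ad I (15.2), a log2 ratio of 4.21 (2.70 to 6.38). Cidea was also at 66.5 in the thymic T-cell-marker barcodes (53.5 to 81.6) and at 201 in all thymic unlabelled barcodes, and its interval in thymic Ad Ia (145, 39.4 to 370) overlapped both while that in thymic Ad Ib (488, 252 to 853) lay above both. Cidea made up 33.3% of the Cidea and Cidec UMIs of thymic Ad I (20.4 to 48.4) and 0.588% of those of epigonadal Ad I (0.161 to 1.50). Within thymic Ad I the share was 12.5% for Ad Ia and 75% for Ad Ib (47.6 to 92.7), and over thymic unlabelled barcodes it was 58.7%. In the thymic library Ad Ib over Ad Ia was -2.49 for Cidec (-4.61 to -1.12) and 1.64 for Cidea (0.033 to 3.84), so the 2 genes stood in opposite order in these labels. Ucp1, the uncoupling protein of brown and beige fat, was at 163 CPM in thymic Ad Ib (44.3 to 417, 4 UMIs), 36.2 in thymic Ad Ia (1 UMI) and 90.4 in thymic unlabelled barcodes (81.9 to 99.5), with 0 UMIs in epigonadal Ad I. The part of free RNA, and of the 3580 endothelial CPM of thymic Ad Ib, in the Cidea values was not tested.

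**Figure D2:**
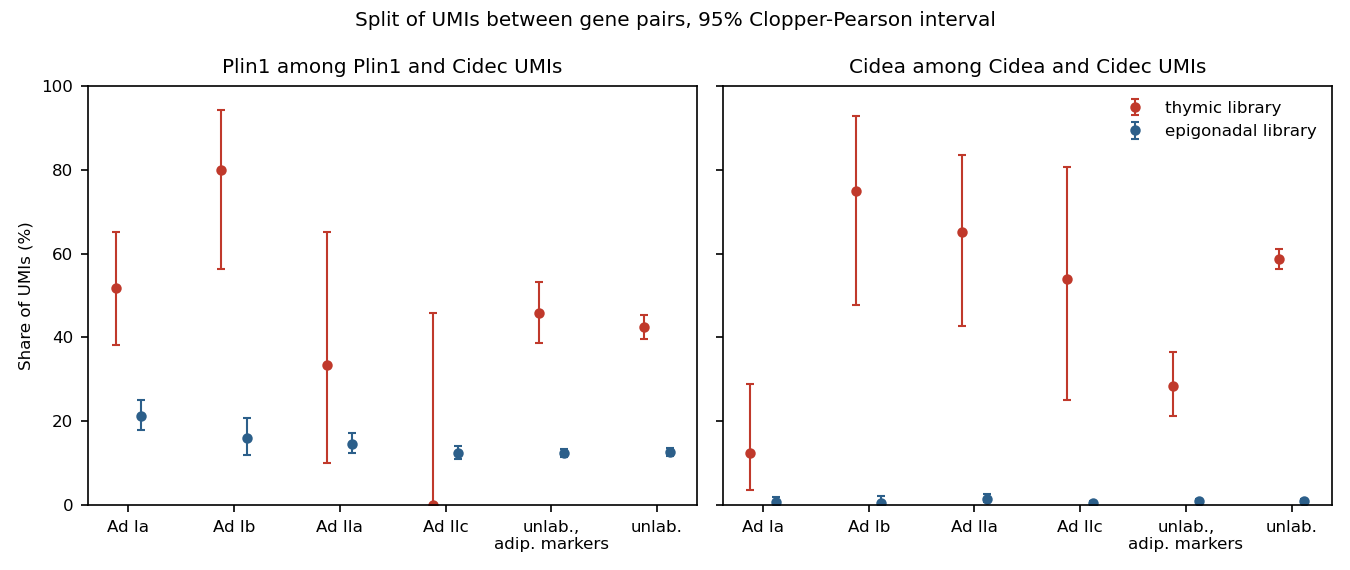
Share of UMIs in percent (vertical axis) that fell on Plin1 among Plin1 and Cidec UMIs (left) and on Cidea among Cidea and Cidec UMIs (right), by label (horizontal axis), in the thymic (red) and epigonadal (blue) library, with 95% Clopper-Pearson intervals; unlab. stands for unlabelled barcodes and adip. markers for those with at least 3 adipocyte markers. In Ad Ia and Ad Ib the thymic Plin1 shares of 51.7% and 80% lie above the epigonadal shares of 21.3% and 16.0%.

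The remaining droplet genes of Ad I, in lists chosen with earlier results known, differed between the libraries in both directions. Of 13 genes of droplet formation and growth, which include Cidea, 9 reached 10 UMIs, 3 of them 2-fold higher in the thymic library, where 15.2% of all genes were, and none 2-fold lower, where 17% were. Their median log2 ratio was 0.94. Fitm2, which helps droplets bud, was at 1.90 (0.36 to 3.33). Of 8 genes of lipolysis 7 reached 10 UMIs, with 1 higher and 1 lower by 2-fold and a median of -0.33 over those 7. In that list Abhd5, the lipase activator held by Plin1, was at 1.98 (0.85 to 3.06) and Mgll, which cleaves monoglycerides, was at -1.27 (-1.84 to -0.78). Of 6 transcriptional regulators, with a median of -0.41, 1 was higher and 2 lower by 2-fold, and Pparg, the main regulator of fat cell genes, was at 0.68 (0.27 to 1.05). Among 16 other droplet surface and contact proteins 9 reached 10 UMIs, with a median of 0.48 over those 9, and no interval lay off 0.

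In Ad IIa the members were lower in the thymic library nearly throughout. Of 6 members with at least 10 UMIs, 5 were 2-fold lower, where 16.2% of 9775 genes were, and 0 were 2-fold higher, where 5.44% were. Plin4 was at 2.49 against 181 CPM, a log2 ratio of -5.60 (-11.5 to -3.69), Cidec at -4.74 (-6.04 to -3.84) and Plin1 at -3.12 (-5.18 to -1.89). Bscl2 was at -2.43 (-4.50 to -1.17) and Plin2 at -1.17 (-1.74 to -0.67), while Plin3 spanned 0 at -0.32 (-1.54 to 0.65). The median was -2.43 over all 7 members and -2.77 over the 6, beside -0.024 over all genes. All 10 adipocyte markers were also lower in thymic Ad IIa, with a median of -4.25, or -2.76 with the counts of 0 of Lep, Trarg1 and Slc2a4 held at 3 UMIs. Scaling by the adipocyte markers moves every gene of this comparison by the same amount, and Plin1, Plin2 and Bscl2 then turned to 0.83, 2.79 and 1.53. Of the 10 formation genes with at least 10 UMIs, 1 was higher and 2 lower by 2-fold, and of the 7 lipolysis genes 4 were lower, among them Pnpla2, the first lipase of stored triglyceride, at -2.55.

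In Ad IIc neither Plin1 nor Plin4 was seen in the thymic library. Thymic Ad IIc had no UMI of Plin4 against 570 in epigonadal Ad IIc, and was 20.0-fold lower with its 0 held at 3 UMIs. Plin1, with 0 against 229 UMIs, was 8.02-fold lower in the same way. Plin3 had 0 against 35 UMIs, with an interval that spanned 0. Cidec was at -4.71 (-6.27 to -3.70) and Bscl2 at -2.97 (-8.86 to -1.04), while Plin2 spanned 0 at -0.46 (-1.55 to 0.36). Of 6 members 5 were 2-fold lower with 0.5 UMI added, but so were 32% of all genes, and 32.7% were 2-fold higher. Plin3 is among the 5 only through the 0.5 UMI, since with its 0 held at 3 UMIs it was 1.23-fold lower. These sums rest on 34 thymic nuclei with 25892 erythroid CPM and with adipocyte markers at 1308 against 49129. In Ad IIb 2 of 4 members, Cidec and Bscl2, were 2-fold lower with 0.5 UMI added, where 13.4% of genes were, and both had no thymic UMI. Cidec had 0 against 57 UMIs and was 3.65-fold lower with its 0 held at 3 UMIs. Bscl2 had 0 against 10, and its 0 allows 111 CPM against 71.1 measured, so no difference was detectable. None of the 4 was 2-fold higher, where 16.4% of genes were.

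**Figure D3:**
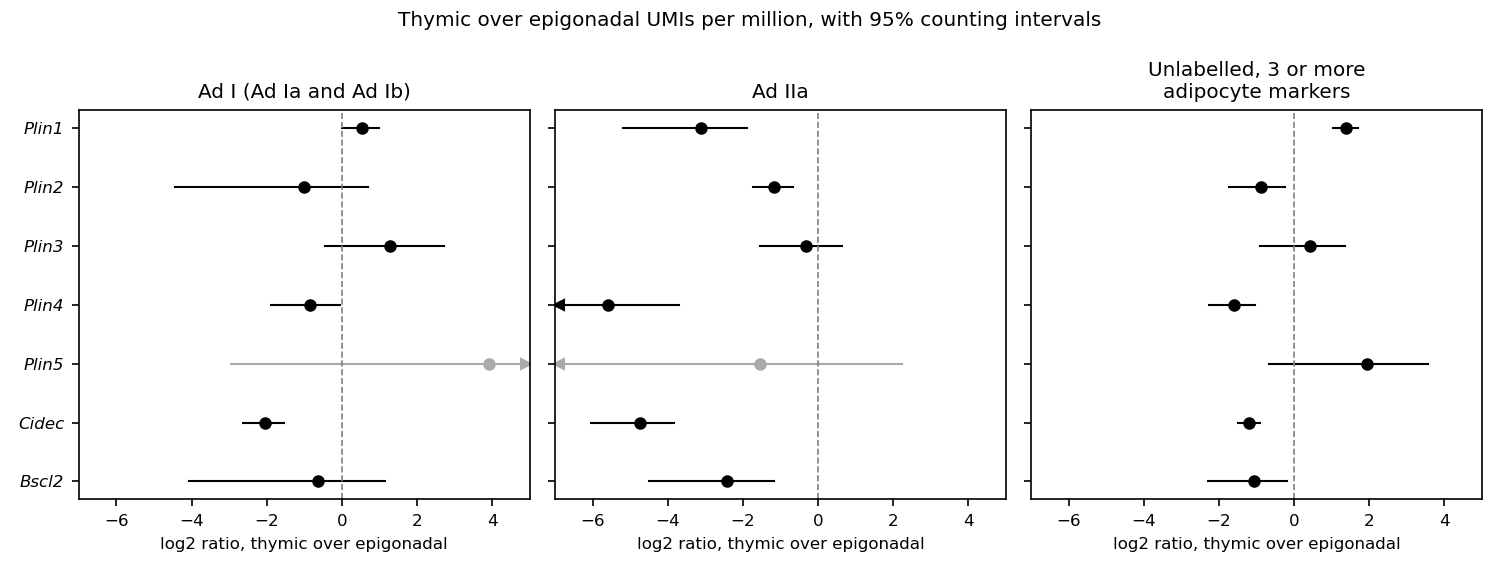
Log2 ratio of thymic over epigonadal CPM (horizontal axis) for the 7 genes (vertical axis) in Ad I, Ad IIa and unlabelled barcodes with at least 3 adipocyte markers; points have 0.5 UMI added, bars are 95% exact binomial intervals, arrows mark intervals that run on, and grey marks genes with under 10 UMIs. Plin1 lies at 0.52 in Ad I, -3.12 in Ad IIa and 1.39 in the unlabelled barcodes, while Cidec lies below 0 in all 3.

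Barcodes outside the authors' labels come from the same libraries and add no replicate, but they hold nuclei that were not counted above. At least 3 of the 10 adipocyte markers, none of which is a member, were seen in 263 thymic and 2250 epigonadal unlabelled barcodes. In these Plin1 was at 577 CPM in the thymic library (87 UMIs) and 222 in the epigonadal library (563 UMIs), a log2 ratio of 1.39 (1.04 to 1.71). Cidec was at 684 against 1570, a log2 ratio of -1.19 (-1.50 to -0.92). Plin4 was at -1.59 (-2.25 to -1.05), Bscl2 at -1.07 (-2.29 to -0.20) and Plin2 at -0.89 (-1.72 to -0.24), and Plin3 and Plin5 spanned 0. Plin1 stood above 0 and Cidec and Plin4 below 0, the same signs as in Ad I, in barcodes that share no nucleus with it. Of the 7 members 2 were 2-fold higher, where 18.8% of genes were, and 3 were 2-fold lower, where 17.9% were. The Plin1 share of Plin1 and Cidec UMIs was 45.8% (38.6 to 53.2) against 12.4% (11.4 to 13.4). Over all unlabelled barcodes Plin1 was lower in the thymic library instead, at 104 against 164 CPM (-0.65, -0.82 to -0.47), as it was over all labelled nuclei (-1.35, -1.81 to -0.94). Over all unlabelled barcodes 4 of 7 members were 2-fold lower, where 22.4% of genes were, and 0 were higher, where 11.1% were, and over all labelled nuclei 6 of 7 were lower, where 20.2% of genes were, and 0 higher, where 8.12% were. In the barcodes with adipocyte markers, mitochondrial transcripts, left out of the totals, made up 33.2% of thymic and 10.3% of epigonadal UMIs. Their adipocyte markers summed to 12418 and 23285 CPM, endothelial markers to 4188 and 3751, and erythroid markers to 777 and 6297. Ribosomal protein transcripts stood at 36326 and 60518 CPM, and the nuclear RNAs Malat1, Neat1 and Meg3 at 36160 and 10116.5. The part of these differences in the ratios was not tested, and the ratios of these barcodes were not rescaled by the adipocyte markers.

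Within a library, Ad IIa was compared with Ad I, and Ad IIc with the same Ad I nuclei. In both libraries Ad IIa had less Plin1, Cidec and Plin4 than Ad I. In the thymic library the log2 ratios of Ad IIa over Ad I were -6.31 for Plin1 (-8.40 to -5.01), -4.88 for Cidec (-6.27 to -3.79), -6.00 for Plin4 (-11.9 to -3.77) and -2.25 for Plin3 (-3.81 to -0.46). All 4 Ad IIa levels behind these ratios were within the thymic background given above. There 4 of 5 members were 2-fold lower, where 20.2% of genes were, and 0 were higher, where 28.2% were. In the epigonadal library they were -2.67 for Plin1 (-3.02 to -2.32), -2.18 for Cidec (-2.34 to -2.03) and -1.25 for Plin4 (-1.57 to -0.90). Plin2 went the other way there, at 198 against 94.8 CPM and a log2 ratio of 1.04 (0.47 to 1.72). These epigonadal Ad IIa levels stood below those of all epigonadal unlabelled barcodes by point estimate. Of 6 epigonadal members 3 were 2-fold lower, where 17.5% of genes were, and 1 was 2-fold higher, where 19.8% were. The 4 caveolar genes, Cav1, Cav2, Cavin1 and Cavin2, which are also strongly expressed in endothelium, were each 2-fold higher in Ad IIa in both libraries by point estimate, with medians of 1.58 and 1.48, although the thymic interval of Cav2 spanned 0 (-0.026 to 3.89). By point estimate each was also 2-fold higher in Ad IIc than in Ad I, where 29.6% of thymic and 24.3% of epigonadal genes were. The medians there were 2.06 and 1.50, beside endothelial sums of 12034 and 541 CPM in Ad IIc. The part of endothelial transcripts in these values was not tested.

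Epigonadal Ad IIc carried more Plin2, Plin4, Bscl2 and Cidec than Ad I and less Plin1, while the interval of Plin3 spanned 0 (67.8 against 49.3 CPM). Its log2 ratios over Ad I were 1.59 for Plin2 (0.999 to 2.29), 1.36 for Plin4 (1.07 to 1.67), 1.55 for Bscl2 (0.87 to 2.36) and 0.29 for Cidec (0.16 to 0.42). Plin5 had 9 UMIs against 0, 1.53-fold higher with the 0 held at 3 UMIs, and Plin1 was lower at -0.48 (-0.77 to -0.18). With TMM scaling Plin1 turned to 0.12. Of 6 members 3 were 2-fold higher, where 24.3% of genes were, and 0 were lower, where 37.5% were. The median over the 6 members with at least 10 UMIs was 0.89 beside -0.40 over all genes and 1.81 for the adipocyte markers. With Plin5 the members' median was 1.36, or 0.62 with its 0 held at 3 UMIs. Scaled by those markers, the median of all 7 turned to -0.87. Of 7 lipolysis genes with at least 10 UMIs 3 were 2-fold higher in Ad IIc, Pnpla2, its inhibitor G0s2 and Abhd5 at 2.45, 2.09 and 1.74, and 2 were 2-fold lower, Pnpla3 at -3.00 and Ldah at -1.76. Ad IIc had ribosomal protein transcripts at 84720 CPM against 21092 in Ad I, and the nuclear RNAs Malat1, Neat1 and Meg3 at 1829 against 42411, and the part of this difference in RNA makeup was not tested.

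In the thymic library Ad IIc had no Plin1 or Plin4 UMI, 15.9-fold and 4.15-fold lower than Ad I with each 0 held at 3 UMIs. Cidec was at -2.38 (-4.02 to -1.19). Plin2 was higher at 2.15, with 11 against 2 UMIs (0.21 to 5.62). Of 4 members 3 were 2-fold lower, where 25.9% of genes were, and 1 was higher, where 29.6% were. Between the parts of Ad I, epigonadal Ad Ib had less Plin1 than Ad Ia at -1.04 (-1.57 to -0.55), less Cidec at -0.54 (-0.77 to -0.31) and less Plin4 at -0.60 (-1.21 to -0.036). There 1 of 6 members was 2-fold lower, where 9.97% of genes were, and 1, Plin3, was 2-fold higher, where 9.38% were, from a level in Ad Ia of 3 UMIs that lies within the background. In the thymic library the interval of Plin1 in that contrast spanned 0, 2 of 3 members were 2-fold lower, where 15.4% of genes were, and 0 higher, where 13.6% were. Ad IIb, set against the same Ad I nuclei, had 4 of 6 epigonadal members 2-fold lower, where 21.2% of genes were, and 0 higher, where 19.6% were. Cidec was at -2.65 there (-3.08 to -2.27) and Plin1 at -3.75 (-5.32 to -2.70). In the thymic library, with 16 Ad IIb nuclei, 3 of 3 members were 2-fold lower, where 24.8% of genes were, and 0 higher, where 26.6% were. These members, Plin1, Cidec and Plin4, reached 10 UMIs only through Ad I. Plin1 had 0 against 46 UMIs and Cidec 0 against 32, 7.93-fold and 5.52-fold lower with each 0 held at 3 UMIs. The interval of Plin4 spanned 0.

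In the thymic library Plin2 was the only member whose interval showed more in labelled nuclei than in unlabelled barcodes. Labelled over unlabelled, Plin2 was at 1.08 (0.59 to 1.53), Cidec at -0.70 (-1.18 to -0.29), and the other 5 intervals spanned 0. There 1 of 7 members was 2-fold higher, where 16.6% of genes were, and 1 was 2-fold lower, where 23.8% were. Of the 49 labelled Plin2 UMIs 35 came from Ad IIa. Beside this, endothelial markers summed to 12470 CPM in labelled nuclei and 1394 in unlabelled barcodes, mitochondrial transcripts made up 13.2% and 51.2% of UMIs, and their part in the Plin2 difference was not tested. Of all thymic Cidec UMIs 651 lay in unlabelled barcodes and 46 in labelled ones. In the epigonadal library Plin1 was at 0.55 (0.38 to 0.72), Cidec at 0.32 (0.26 to 0.39) and Plin4 at 0.21 (0.091 to 0.33), with 0 of 7 members past 2-fold, where 5.08% of genes were higher and 14.9% lower.

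Across 12 sums, the 5 labels and the unlabelled barcodes of each library, each member was set against 11584 genes with at least 50 UMIs by Pearson correlation of log2 CPM after adding 10 CPM. The 12 sums share 2 libraries and differ in depth, so these values are descriptions. Plin1 was most like Sort1 (0.99), Pcx (0.99) and Pygl (0.98). Cidec was most like C4b (0.96), Car3 (0.96) and Car5b (0.94), and Plin4 most like Gstz1 (0.97), Aldh6a1 (0.95) and Net1 (0.95). Plin2 was most like Anapc13, Fabp4 and 1810058I24Rik (0.95 each), and Bscl2 most like Pepd (0.98), Retn (0.97) and Acads (0.97). Plin3, with 371 UMIs in all, was most like Dnajc25 (0.92), and Plin5 rests on 64 UMIs. Among the members, Cidec stood closest to Bscl2 (0.87) and Plin4 (0.84), Plin1 to Plin4 (0.83), and Plin1 and Plin2 were unrelated (-0.079).

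Chromatin was read from the female thymus, where fragments of 317 labelled nuclei were counted: 146 of thyAD I, 140 of thyAD II and 31 labelled Immune, with 1646902, 2189613 and 561387 fragments. In the build GRCm38 Plin1 lies on chromosome 7 (79721164 to 79732904), Plin2 on chromosome 4 (86626910 to 86670217), Cidec on chromosome 6 (113424634 to 113435760) and Bscl2 on chromosome 19 (8837467 to 8848683). Plin4 (56100587 to 56109948), Plin5 (56111597 to 56117606) and Plin3 (56278962 to 56290511) lie together on chromosome 17. Over the gene body and 2 kb on either side, Plin4 had 253 fragments per 1000000 fragments of the group (FPM) in thyAD I (229 to 278), 200 in thyAD II (182 to 220) and 110 in Immune nuclei (84.7 to 142). Plin1 had 152 (134 to 172), 137 (122 to 153) and 99.8 (75.4 to 130). Cidec had 116 (100 to 134), 111 (97.9 to 126) and 64.1 (44.9 to 88.8). Per kb of window in thyAD I the order was Plin4 at 18.9, Plin5 at 12.7, Plin1 at 9.64, Cidec at 7.67, Bscl2 at 6.18, Plin3 at 5.31 and Plin2 at 2.03. The windows of the neighbours Plin4 and Plin5, which lie 1648 bp apart, share 370 fragments, 79.9% of those of Plin5, so Plin5 has little signal of its own here. Other genes also enter the windows of Plin2 (Gm12551), Plin4 (Hdgfl2), Cidec (Gm52871) and Bscl2 (Gng3).

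The groups thyAD I and thyAD II differed little at the adipocyte and endothelial markers, and are called by their labels. The 10 adipocyte markers had a median log2 ratio of -0.060 in thyAD II over thyAD I, with 2 intervals below 0, and the 10 endothelial markers one of 0.098, with Flt1 higher at 0.66 (0.13 to 1.23) and the other 5 endothelial markers with enough fragments spanning 0. In thyAD II over thyAD I, all 7 members were below 0, with log2 ratios of -0.34 for Plin4 (-0.53 to -0.14) and -0.29 for Plin5 (-0.56 to -0.0089), whose fragments are largely the same, and intervals spanning 0 for the other 5. None of the 7 was past 2-fold, where 0.754% of 17894 genes were higher and 0.425% lower. The members' median was -0.26 beside 0.0069 over all genes. Of 6 transcriptional regulators 5 had intervals below 0, with a median of -0.42, and of 8 lipolysis genes 3 did, with a median of -0.14. Of 12 droplet formation genes with enough fragments 2 did, and the median of that list was -0.036. The other droplet surface and contact proteins and the caveolar genes had 0 intervals below 0. They had 2 and 1 above 0, with medians of 0.033 and 0.023. The share of all genes with an interval below 0 was not computed. Plin1 was at -0.15 (-0.39 to 0.10) and Cidec at -0.058 (-0.34 to 0.22). The authors' clusters 1 and 3 make up thyAD I, and 0 and 4 make up thyAD II. Between clusters 3 and 1, Cidec was higher in cluster 3 at 0.48 (0.038 to 0.91), while all other members, and all 7 between clusters 4 and 0, had intervals spanning 0. In both pairs none was past 2-fold, where 1.03% of genes were higher and 1.34% lower between 3 and 1, and 0.364% and 0.557% between 4 and 0.

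**Figure D4:**
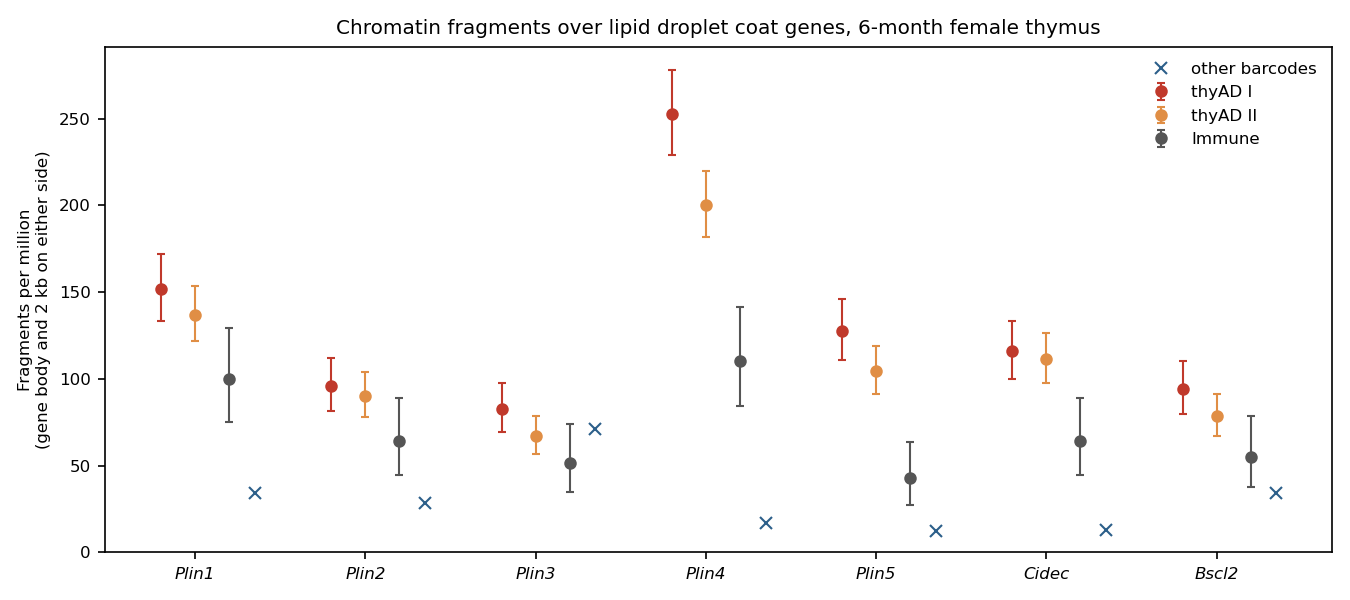
Chromatin FPM (vertical axis) over the gene body and 2 kb on either side of the 7 genes (horizontal axis) in the female thymus, for thyAD I, thyAD II and Immune nuclei with 95% Poisson intervals and for all other barcodes (crosses). Plin4 stands at 253, 200 and 110 in the 3 labels, and Plin3 is the member whose level in other barcodes (71.4) is as high as in labelled nuclei.

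Immune nuclei, compared after the data had been seen, had a lower point estimate at every member. Immune over thyAD I and II together, Plin5 was at -1.39 (-2.08 to -0.83), Plin4 at -1.0004 (-1.41 to -0.64), Cidec at -0.80 (-1.36 to -0.33), Bscl2 at -0.61 (-1.21 to -0.093), Plin2 at -0.52 (-1.07 to -0.036) and Plin1 at -0.51 (-0.95 to -0.12), with Plin3 spanning 0 at -0.49. Of the 7 members 2 were 2-fold lower, where 6.95% of 18766 genes were, and 0 were higher, where 4.08% were. The 2 are the neighbours Plin4 and Plin5, whose windows share 79.9% of the Plin5 fragments, so they are largely the same signal. The members' median was -0.61 beside -0.057 over all genes. Medians of some other lists lay close by, at -0.59 for the adipocyte markers, -0.73 for lipolysis, -0.72 for caveolae, -0.69 for regulators and -0.51 for droplet formation. Those of the other droplet surface and contact proteins (-0.093) and of the endothelial markers (-0.12) lay nearer that of all genes. The T cell markers had a median of 2.57. Counted only within 500 bp of the first start, Plin2 and Bscl2 turned to 0.31 and 0.63, with 11 and 8 Immune fragments. Barcodes outside the 3 labels had 17.1 FPM at Plin4, 12.98 at Cidec and 34.1 at Plin1, but 71.4 at Plin3; they may hold nuclei whose labels were not read.

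Cut sites had a local peak at the starts whose upstream letters are printed above. In steps of 500 bp from the edge of the window, the busiest thyAD stretch lay beside each of these starts. It was centred at -138 bp for Plin1, -101 for Plin2, -55 for Plin4 and -124 for Cidec. In bins of 250 bp this did not hold for Plin1. For thyAD I and II nuclei together, the 250 bp on either side of the first start held 22.8% of the cut sites in the window of Cidec, 21.6% for Plin3, 18.2% for Plin4, 14.5% for Plin2, 13.02% for Plin1, 8.68% for Plin5 and 8.28% for Bscl2. In bins of 250 bp within 2 kb of the start of Plin1, the fullest was centred at -1875 bp in all 3 labels, with 46 cut sites in thyAD I against 39 at -125 bp, 44 against 41 in thyAD II and 12 against 11 in Immune nuclei. The counts of each pair lay close together. In the steps of 500 bp, the busiest stretch of Bscl2 lay inside the gene, 7250 bp past the start, with 31.6%. Within 500 bp of the start, Plin4 had 55.0 FPM in thyAD nuclei (47.8 to 62.9) and 33.8 in Immune nuclei (20.4 to 52.9). Cidec had 34.7 (29.0 to 41.1) and 17.8 (8.54 to 32.8), and Plin1 had 22.2 (17.7 to 27.4) and 10.7 (3.92 to 23.3). The ratio of Immune over thyAD fragments there was -0.67 for Plin4 (-1.46 to -0.022) and -0.90 for Cidec (-2.05 to -0.037), both only just off 0, and spanned 0 for Plin1 at -0.94 (-2.54 to 0.13) and for the other 4 members.

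**Figure D5:**
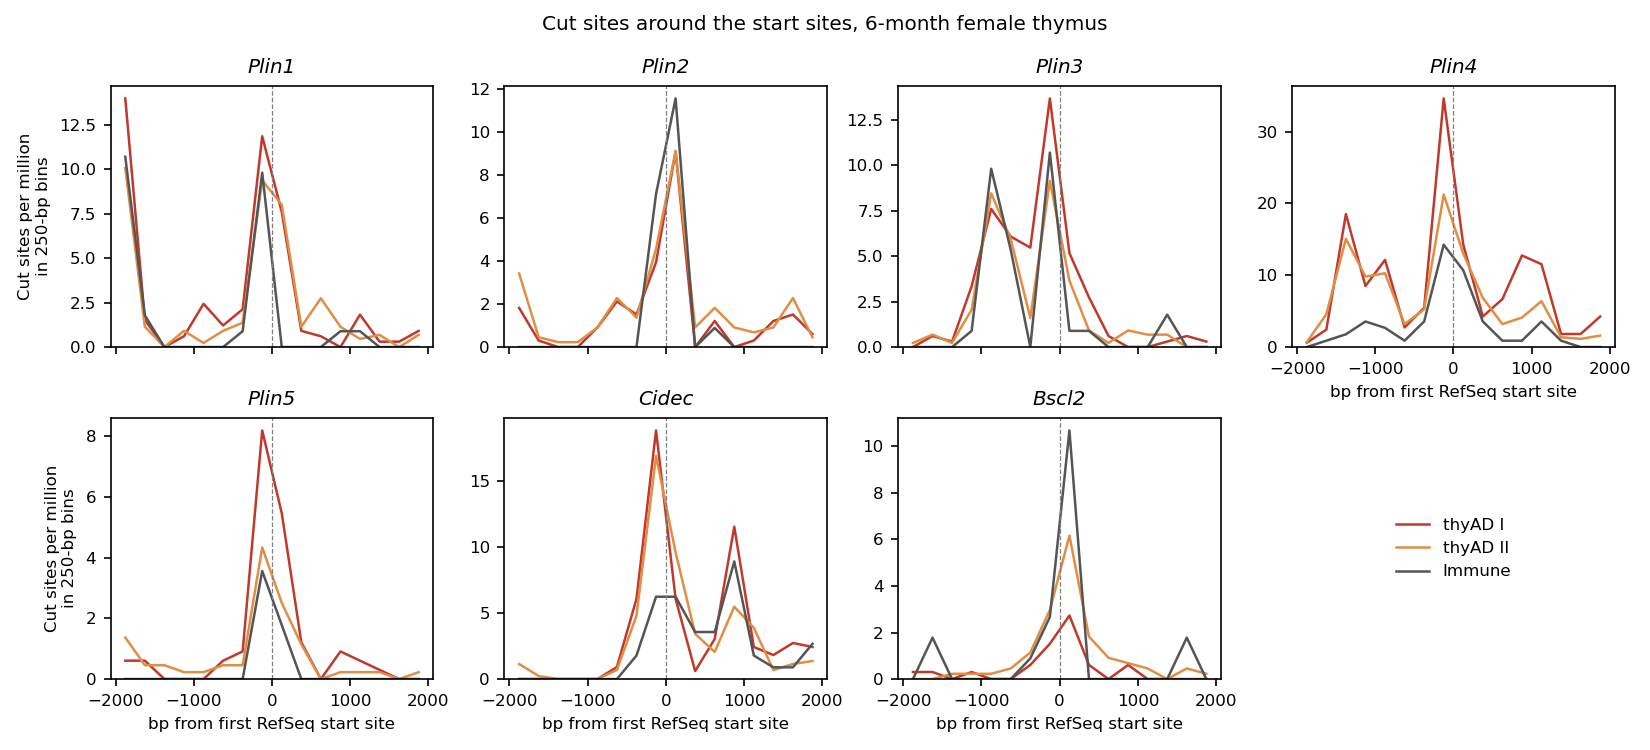
Cut sites per 1000000 (vertical axes, a separate scale per gene) in 250-bp bins against distance in bp from the first RefSeq start site (horizontal axes, upstream negative) for thyAD I, thyAD II and Immune nuclei. Each gene has a local peak beside its start, that of Plin1 lower than one near -1875 bp, and the peak of Plin4 is taller in thyAD I than in Immune nuclei.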

How the data were processed

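RNA counts are UMIs per gene and barcode in matrices the authors deposited, whose file headers name cellranger 7.2.0; the build mm10, Cell Ranger ARC 2.0.2 and Seurat 5.1.0 stand in the submitters' processing notes. Intron counting is not stated. Chromatin fragment counts were deposited by the authors as positions per barcode (cellranger-arc 2.0.2 per the file headers). Labels come from the authors' deposited metadata; the table of the female thymus was complete for 317 nuclei, and their 4397902 fragments are 4.35% of the 101060606 in the file. Labels after the first incomplete row were not used.

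The members and gene lists were chosen with earlier results of these data known. UMIs were summed per label and divided by nuclear-encoded UMIs; mitochondrial genes were left out. A sum of 0 allows up to 3 UMIs. Folds against such a sum hold it at 3 UMIs and the other count at its measured value, whose counting error they leave out. Ratios have 0.5 UMI added and exact binomial 95% intervals; a gene counts as called past 2-fold with at least 10 UMIs (50 fragments) over both sides. Intervals and limits cover counting error only. The authors' scDblFinder class is given as singlet for labelled nuclei in their deposited metadata, and was not examined further here. Unlabelled barcodes were not screened for doublets. Shares across depths were thinned to 500 UMIs. Non-members are named where among the 2 highest or 2 lowest in their list, 1 of the 3 closest by correlation, a marker or a caveolar gene. Fitm2, Pparg, Pnpla2 and Abhd5 are named where their role bears on a member, and Ucp1 beside Cidea. Adipocyte-marker scaling, counts of 0 held at 3 UMIs, windows at the starts and the Immune comparison were added after seeing the data. Python 3.11.15, numpy 2.4.6, scipy 1.17.1, pandas 2.3.3, matplotlib 3.10.9, R 4.3.3 and edgeR 4.0.16 (TMM scaling factors only) were used; the ratio scripts were tested on simulated data.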

Additional observations from a re-analysis of the deposited data

Results flagged for a closer look

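In 3 places the log2 ratios of 2 groups lay on opposite sides of 0, with 1 library on each side, and none of these differences was tested. The thymic over epigonadal log2 ratio of Plin1 was 0.52 in Ad I and -3.12 in Ad IIa. Its interval in Ad I only just lay above 0 and spanned 0 with TMM scaling. The thymic Ad IIa level of Plin1 is not read as expression. The Ad IIc over Ad I log2 ratio of Plin4 was -2.05 in the thymic library, with its 0 UMIs held at 3, and 1.36 in the epigonadal library. The Ad IIc over Ad I log2 ratio of Cidec was -2.38 in the thymic library and 0.29 in the epigonadal library. Scaled by the adipocyte markers, the Plin1 ratio in Ad IIa turned above 0, and the epigonadal ratios of Plin4 and Cidec turned below 0.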

How the results depend on the processing

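Medians of the members were recomputed under 92 alternatives and single members under 534. Of the 68 listed at the start for medians, 63 stayed within the counting interval of the member at the median and 5 moved. Of the 378 listed for single members, 351 stayed within the interval of that member, 25 moved and 2 reversed. Among those added after seeing the data, 3 of 24 medians and 15 of 156 single members reversed; most come from scaling by the adipocyte markers, which shifts every gene of a comparison by 1 constant, so their number follows from that shift. A change of sign counts as a reversal only where the interval of the member, or of the member at the median, lay off 0. The interval of that member is no spread of the median. In thymic Ad IIa over Ad I it belonged to Plin5, with 0 against 1 UMI, so a kept median says little there. The chromatin setting of at least 3000 fragments left out no nucleus, since the lowest held 3610. Its kept values were therefore fixed in advance. Scaling by the adipocyte markers gave medians of 2.55 for thymic over epigonadal in all labels (main value -1.35), 1.53 in Ad IIa (-2.43), -0.87 for epigonadal Ad IIc over Ad I (1.36), 0.50 for thymic labelled over unlabelled (-0.32), 0.0047 for the epigonadal one (0.21) and 0.039 in Ad I (-0.63), where Plin4 was -0.18 and no longer lay off 0. Under that scaling single members reversed in Ad IIa (Plin1 0.83, Plin2 2.79, Bscl2 1.53), in all labels (Plin1 2.55, Plin2 2.79, Bscl2 1.07), in thymic Ad IIa over Ad I (Plin3 1.08), in thymic labelled over unlabelled (Cidec 0.11) and in epigonadal Ad IIc over Ad I (Plin2 -0.64, Plin4 -0.87, Cidec -1.94, Bscl2 -0.69). The median of epigonadal Ad IIc over Ad I was 1.96 with TMM scaling, 0.52 with 5 UMIs added, 0.89 over members with at least 10 UMIs and 0.62 with counts of 0 at 3 UMIs. The median in all labels was -2.09 in nuclei with at least 1000 UMIs, and the epigonadal labelled over unlabelled median was 0.41 with barcodes weighted equally. Plin1 in epigonadal Ad IIc over Ad I reversed to 0.12 with TMM, and Cidec in thymic labelled over unlabelled to 0.083 when thinned. For Immune over thyAD chromatin, Bscl2 reversed to 0.48 with 1 kb on either side of the gene ends and 0.63 with 500 bp on either side of the start, and Plin2 to 0.31 with the latter. The cause of these changes was not tested. The Cidec ratio in Ad I kept its direction under each alternative run. No paired analysis was possible because each group is 1 library. Depth limits the small groups: the 84 nuclei of thymic Ad I held 52241 nuclear-encoded UMIs, the 16 of thymic Ad IIb held 27020, and in thymic Ad I Plin2, Plin3, Plin5 and Bscl2 rest on 6 UMIs or fewer each.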
